A study of Rattus norvegicus with 14 samples.

Results

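Simple columnar epithelium is recognised by a small set of keratins and adhesion molecules. Here 8 keratin and adhesion genes are described across postnatal growth of the epididymis in the rat, where spermatozoa mature and are stored. Not all 8 genes are typical of this epithelium. They were chosen by symbol: the keratin genes Krt7, Krt8, Krt18 and Krt19, the adhesion gene Epcam and the classical cadherin genes Cdh1, Cdh2 and Cdh3. All 8 had 1 transcript cluster of their own on the array, out of 18166 genes measured, and none shared a cluster with another symbol. The pools came from whole epididymides of Sprague-Dawley rats of 7 (3 pools), 18 (4 pools), 28 (4 pools) and 60 days (3 pools), each on 1 RatGene 2.0 ST array. No animal was treated or carried an engineered allele according to the labels; the pups of 7 and 18 days were kept with their mothers, and how many animals made a pool is not stated. The tissue is whole, so epithelium, stroma, muscle, vessels and covering are mixed in each value. Whether fewer cells of a type or less RNA per cell lowers a signal cannot be told apart in such pools, and the spread between pools is the error in every comparison.

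Keratins are the intermediate filament proteins of epithelia and assemble as pairs of a type I and a type II chain. Krt8 and Krt7 are type II chains, and Krt18 and Krt19 are type I chains; Krt8 with Krt18 is the first pair made by simple epithelia. E-cadherin (Cdh1) holds epithelial cells together at adherens junctions through the catenins, EpCAM (Epcam) is a surface adhesion protein of most simple epithelia, N-cadherin (Cdh2) is typical of mesenchymal, muscle, neural and mesothelial cells, and P-cadherin (Cdh3) of placenta and of basal or immature epithelia. After birth the undifferentiated columnar cells of the epididymal duct give rise to principal, narrow and clear cells, with basal cells beneath them.

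The genes lie in a few chromosomal neighbourhoods of the RefSeq annotation (assembly GRCr8). Krt8 and Krt18 are next to each other among the coding genes of chromosome 7, which also carries Krt7, and Cdh3 and Cdh1 are neighbours on chromosome 19. Krt19 lies beside Krt15 on chromosome 10, Epcam on chromosome 6 and Cdh2 on chromosome 18. RefSeq promoter sequences were at hand for 3 of the 8 genes, and the 250 bases before the annotated start are shown because these genes were all higher at day 18 than at day 7. Capitals mark the E-box CAGGTG or its reverse complement CACCTG, the letters recognised by the Snail and Zeb repressors of epithelial genes. The sequences are written 5′ to 3′ on the gene's own strand, from GRCr8.
Krt8, chr7:135010340-135010589, minus strand: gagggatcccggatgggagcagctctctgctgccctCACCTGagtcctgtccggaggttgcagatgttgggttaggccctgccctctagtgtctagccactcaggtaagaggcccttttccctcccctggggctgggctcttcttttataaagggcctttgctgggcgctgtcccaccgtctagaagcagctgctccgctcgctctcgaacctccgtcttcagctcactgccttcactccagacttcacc
Krt18, chr7:135035918-135036167, plus strand: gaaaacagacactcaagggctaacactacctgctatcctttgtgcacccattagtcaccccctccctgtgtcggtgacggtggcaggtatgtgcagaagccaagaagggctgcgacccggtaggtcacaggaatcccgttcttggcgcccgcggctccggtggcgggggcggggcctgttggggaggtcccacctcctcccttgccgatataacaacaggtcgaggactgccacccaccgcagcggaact
Epcam, chr6:12649679-12649928, minus strand: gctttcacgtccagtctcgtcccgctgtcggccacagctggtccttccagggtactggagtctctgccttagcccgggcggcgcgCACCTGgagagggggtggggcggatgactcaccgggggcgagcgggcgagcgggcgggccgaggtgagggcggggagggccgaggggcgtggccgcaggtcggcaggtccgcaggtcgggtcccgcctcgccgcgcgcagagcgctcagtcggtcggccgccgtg

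The E-box letters occur once before Krt8 and once before Epcam, beginning 214 and 165 bases upstream of the start, and they are not in this window of Krt18. On either strand 15.9% of 33469 rat promoters of the same length hold them. The GC box GGGCGG (reverse complement CCGCCC), found in 30.5% of those promoters, occurs once before Krt18 and 4 times before Epcam. The TATA letters TATAAA (reverse complement TTTATA, 12.9% of promoters) occur before Krt8 in 2 overlapping matches on opposite strands, and the CCAAT box (ATTGG, 34.0% of promoters) has no match in the 3 windows. These matches are descriptions of letters and not of bound sites.

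Every pool of every member lay above the background level of 4.92 (log2 signal), the 95th percentile of 1344 olfactory and vomeronasal receptor genes. The pools separated by age, within-age correlations across genes ran from 0.989 to 0.995, and 1 pool stood somewhat apart, replicate 2 of day 28 (score of 25.2 on the third principal component, which holds 6.07% of the variance, against 14.2 to 15.9 in the other day 28 pools). Without it no call on a member changed. The label was set beside a list of principal cell genes. The list was chosen with earlier results of these data known, so it is not an independent check. Of 12 genes of that list all 12 were higher at day 60 than at day 7, as were 21.7% of all genes. Age means at day 60 were 13.47 for the lipocalin Lcn5, 13.22 for Adam7 and 11.65 for Crisp1.

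All 8 members changed with age in limma's F test over the 4 ages (adjusted p from 1.34e-09 for Cdh3 to 0.0093 for Krt18); 60.4% of all genes did so too. The members did not move as a group. Krt8, Krt18, Krt19, Epcam and Cdh1 had their highest age mean at day 18, and Krt7, Cdh2 and Cdh3 had theirs at day 7. The distance between the highest and the lowest age mean was 2.26 for Krt7, 1.92 for Cdh2, 1.69 for Cdh3, 1.66 for Krt19 and 1.17 for Epcam on the log2 scale. It was 0.83 for Krt8, 0.54 for Cdh1 and 0.39 for Krt18, against a median of 0.46 over all genes.

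**Figure D1:**
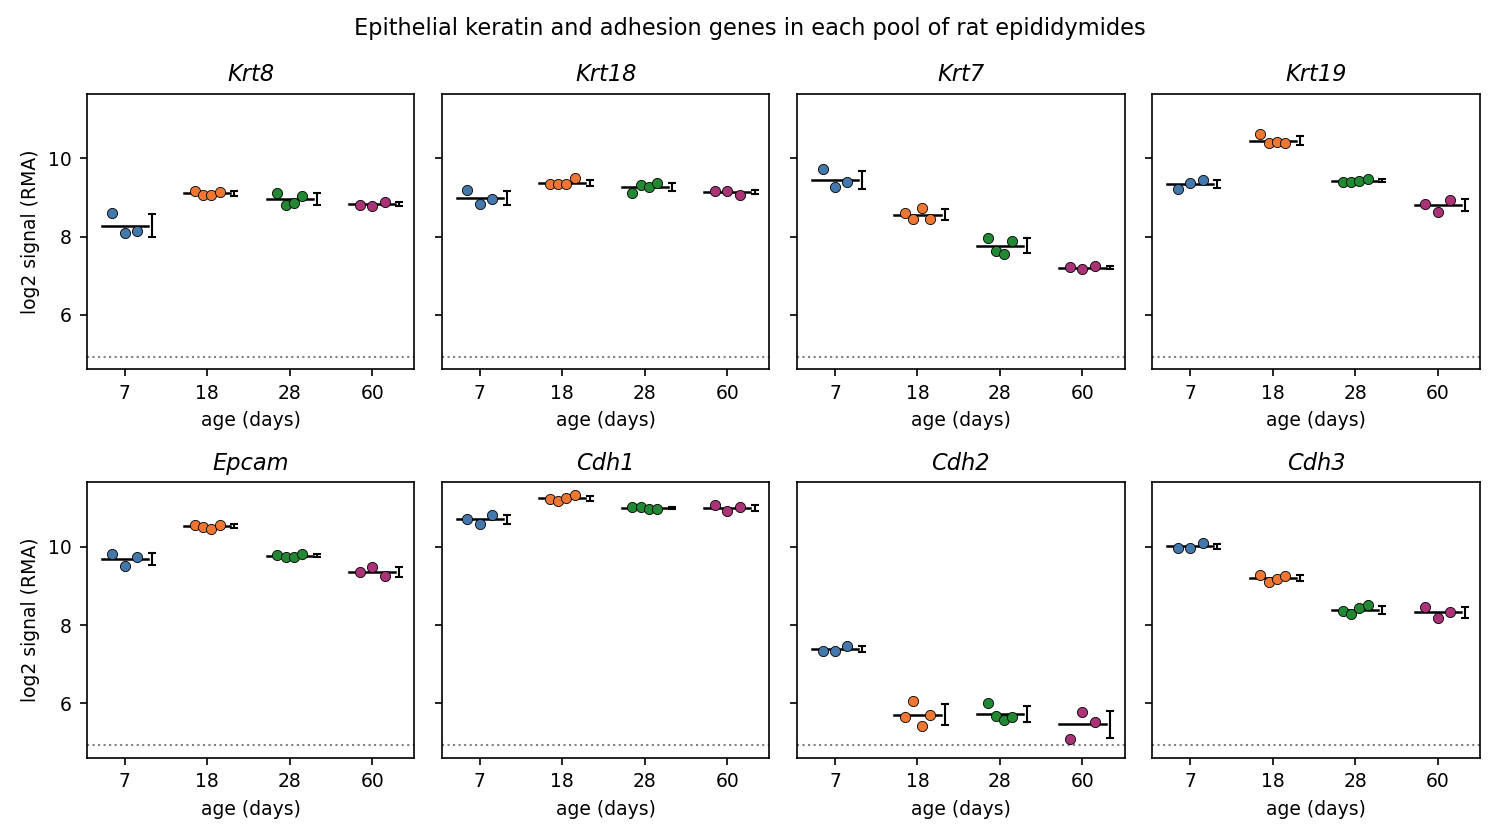
Log2 signal (RMA, vertical axis) of each of the 8 genes in each of the 14 pools, by age in days (horizontal axis, ages evenly spaced). Points are pools, the long bar is the mean of an age, the short bar beside it spans 1 SD either way, and the dotted line is the background level of 4.92. Krt19 and Epcam are highest at day 18, and Krt7 is lower at each later age.

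Krt8 and Krt18, the basic filament pair of simple epithelium, were higher at day 18 than at day 7. Neither later step passed the test for either gene, and only Krt8 was still called above day 7 at day 60. Krt8 had log2 signals of 8.61, 8.09 and 8.13 at day 7, and the day 18 pools had 9.18, 9.05, 9.05 and 9.15. At day 28 it had 9.12, 8.81, 8.86 and 9.05, followed by 8.80, 8.79 and 8.89 in the oldest pools. Every later pool was above every day 7 pool, while the day 28 pools overlapped those of day 18 and of day 60. Krt8 rose by 0.83 ± 0.12 (log2 difference ± SE, 1.78-fold) from day 7 to day 18, with an adjusted p of 4.49e-05. It then differed by -0.15 ± 0.11 (adjusted p = 0.367) and by -0.14 ± 0.12 (adjusted p = 0.439) over the following steps, which did not pass the threshold of 0.05. Day 60 remained above day 7 by 0.55 ± 0.12 (adjusted p = 0.0018). Against day 18 it was at -0.28 ± 0.12, which did not pass (adjusted p = 0.0666) although the pools of those ages did not overlap.

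Krt18 moved in the same order but less. Its signals were 9.18, 8.82 and 8.95 at day 7, then 9.33, 9.33, 9.34 and 9.50 in the day 18 pools, 9.12, 9.31, 9.27 and 9.38 in the day 28 pools, and 9.17, 9.16 and 9.07 in those of day 60. Only the day 18 pools stood clear of the day 7 pools, and replicate 1 of day 7 lay above the day 60 pools. The rise to day 18 was 0.39 ± 0.092 (1.31-fold, adjusted p = 0.00336), and the later steps were -0.10 ± 0.085 (adjusted p = 0.418) and -0.14 ± 0.092 (adjusted p = 0.304). Day 60 and day 7 differed by 0.15 ± 0.098, with a 95% interval of -0.06 to 0.36 (adjusted p = 0.243). The order of the ages was therefore day 18, 28, 60 and 7, in which no neighbouring ages differed beyond the test; day 18 against day 60 passed narrowly (-0.24 ± 0.092, adjusted p = 0.0466), and so did day 28 against day 7 (0.29 ± 0.092, adjusted p = 0.0182). The second call was lost without replicate 2 or 3 of day 7 or replicate 4 of day 28 (adjusted p = 0.11, 0.0574 and 0.0501, with log2 differences of 0.21, 0.27 and 0.25), and in 2 more of 23 alternatives, with the pools of these ages only (0.057) and with the replicate number as a block (0.0543; range 0.00373 to 0.11). The first was lost in 12 of 23 alternatives (0.0129 to 0.145), among them the omission of any pool of day 18 or of day 60.

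Krt19, the shortest of the keratins and one that lacks a tail domain, had the sharpest maximum of the 4 keratins. Its signals were 9.22, 9.37 and 9.44 at day 7, then 10.63, 10.39, 10.41 and 10.38 in the day 18 pools, 9.40, 9.41, 9.43 and 9.49 in the day 28 pools, and 8.83, 8.64 and 8.93 in those of day 60. The day 18 pools were above all others, the day 60 pools below all others, and day 7 overlapped day 28. Krt19 rose by 1.11 ± 0.090 (2.16-fold, adjusted p = 1.82e-07) to day 18 and fell by 1.03 ± 0.084 (2.04-fold, adjusted p = 5.07e-07) to day 28. It fell by a further 0.63 ± 0.090 (adjusted p = 0.00016) to day 60. Day 28 against day 7 did not pass (0.085 ± 0.090, 95% interval -0.11 to 0.28, adjusted p = 0.469), whereas day 60 was below day 7 by a log2 difference of -0.54 ± 0.097 (adjusted p = 0.000228).

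Krt7, a type II keratin of ducts, glands and mesothelium, was the one keratin member that fell at each step. It read 9.72, 9.27 and 9.39 at day 7, then 8.61, 8.45, 8.72 and 8.46 in the day 18 pools, 7.96, 7.63, 7.56 and 7.88 in the day 28 pools, and 7.21, 7.16 and 7.23 in those of day 60. No pools of different ages overlapped. Krt7 differed by -0.89 ± 0.12 from day 7 to day 18 (adjusted p = 3.03e-05), by -0.80 ± 0.11 to day 28 (adjusted p = 9.46e-05) and by -0.56 ± 0.12 to day 60 (adjusted p = 0.00359). Over the whole span Krt7 was 4.78-fold lower at day 60 than at day 7 (adjusted p = 1.57e-09), and only 0.72% of all genes had a lower difference.

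Epcam followed the course of Krt19 at a smaller size. The pools held 9.81, 9.51 and 9.74 at day 7, then 10.57, 10.52, 10.47 and 10.56 for day 18, 9.78, 9.74, 9.75 and 9.82 for day 28, and 9.34, 9.48 and 9.24 for day 60. The 4 pools of day 18 were above every other pool, and those of day 28 overlapped those of day 7. Epcam rose by 0.84 ± 0.084 (1.79-fold, adjusted p = 1.63e-06), fell by 0.75 ± 0.078 (adjusted p = 5.59e-06) and fell again by 0.42 ± 0.084 (adjusted p = 0.00224). Day 28 and day 7 could not be separated (0.085 ± 0.084, 95% interval -0.09 to 0.27, adjusted p = 0.431), and day 60 was 1.26-fold below day 7 (adjusted p = 0.00626).

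Cdh1, the E-cadherin gene, varied less with age than the other 2 cadherins. It measured 10.71, 10.60 and 10.81 at day 7, then 11.22, 11.19, 11.24 and 11.34 in the day 18 pools, 11.02, 11.03, 10.98 and 10.98 in the day 28 pools, and 11.08, 10.93 and 11.01 in those of day 60. The day 7 pools were the lowest, the day 18 pools the highest, and the day 28 pools lay within the range of day 60. Cdh1 rose by 0.54 ± 0.073 (1.46-fold, adjusted p = 2.81e-05) and then fell by 0.24 ± 0.067 (adjusted p = 0.0162). The last step was 0.00028 ± 0.073 with a 95% interval of -0.16 to 0.16 (adjusted p = 0.998). Day 60 stayed above day 7 by 0.30 ± 0.078 (adjusted p = 0.0045), a call that ended when the table was quantile-normalized (0.16, adjusted p = 0.122; range over 23 alternatives 0.000114 to 0.122). The fall to day 28 lost its call without replicate 4 of day 18 (-0.21, adjusted p = 0.0545; range 0.000705 to 0.0545). Day 60 was below day 18 (-0.24 ± 0.073, adjusted p = 0.0147), but not by the test without replicate 2 of day 60 (-0.20, adjusted p = 0.0702; range 0.000267 to 0.0702).

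Cdh2, the N-cadherin gene, fell once, between day 7 and day 18, and then lay close to the background level. Its signals were 7.33, 7.33 and 7.47 at day 7, then 5.65, 6.06, 5.42 and 5.69 in the day 18 pools, 6.003, 5.68, 5.56 and 5.63 in the day 28 pools, and 5.07, 5.78 and 5.51 in those of day 60. All later pools were below the day 7 pools and overlapped one another. Cdh2 fell by 1.67 ± 0.17 to day 18 (3.19-fold, adjusted p = 1.41e-06), and 0.512% of all genes had a lower difference. The following steps were 0.015 ± 0.15 (95% interval -0.31 to 0.34, adjusted p = 0.956) and -0.27 ± 0.17 (-0.62 to 0.09, adjusted p = 0.27).

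Cdh3, the P-cadherin gene, fell in steps of like size up to day 28. It had 9.98, 9.97 and 10.09 at day 7, then 9.28, 9.10, 9.19 and 9.26 in the day 18 pools, 8.35, 8.27, 8.42 and 8.51 in the day 28 pools, and 8.46, 8.18 and 8.34 in those of day 60. Pools of day 7, day 18 and the later ages did not overlap, and day 28 overlapped day 60. Cdh3 fell by 0.81 ± 0.086 (adjusted p = 3.03e-06) and by 0.82 ± 0.080 (adjusted p = 3.13e-06), and the step to day 60 was -0.063 ± 0.086 (95% interval -0.25 to 0.12, adjusted p = 0.649). At day 60 it was 3.22-fold below day 7 (adjusted p = 9.62e-10).

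Counted by comparison, 5 of the 8 members rose and 3 fell from day 7 to day 18, where 38.1% of all genes were called (17.4% higher and 20.7% lower). All 8 had pools that did not overlap, as did 45.1% of all genes. From day 18 to day 28, 5 fell and 0 rose by limma (also 0 at an unadjusted p under 0.05), against 24.7% of all genes called and 14.3% called lower. Those 5 were also the members whose pools did not overlap, beside 26.5% of all genes. From day 28 to day 60, 3 fell and 0 rose (again 0 unadjusted), against 25.0% and 11.2%, and the same 3 had pools that did not overlap, beside 31.4% of all genes. The 3 that fell at the last step, Krt7, Krt19 and Epcam, had also fallen at the step before. The median difference of the members was 0.47, -0.50 and -0.20 over the 3 steps, beside 0.012, -0.021 and -0.021 for all genes.

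Over the whole span Krt8 and Cdh1 were higher at day 60 than at day 7, Krt7, Krt19, Epcam, Cdh2 and Cdh3 were lower and Krt18 did not pass, beside 49.2% of all genes called, 21.7% higher and 27.6% lower. The 7 called members had pools that did not overlap, as had 57.8% of all genes. The comparison of day 28 with day 7 called 3 members higher (Krt8, Krt18 and Cdh1) and 3 lower (Krt7, Cdh2 and Cdh3), with 48.0% of genes called, 20.5% higher and 27.4% lower; 5 of these 6, all but Krt18, had pools that did not overlap (49.8% of all genes). That of day 60 with day 18 called 6 lower, with 41.1% of genes called either way and 22.1% lower; without replicate 2 of day 60 that count was 4. The pools did not overlap for 7 members, Krt8 included (46.5% of all genes). The comparisons share pools, so their calls are not independent of each other.

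**Figure D2:**
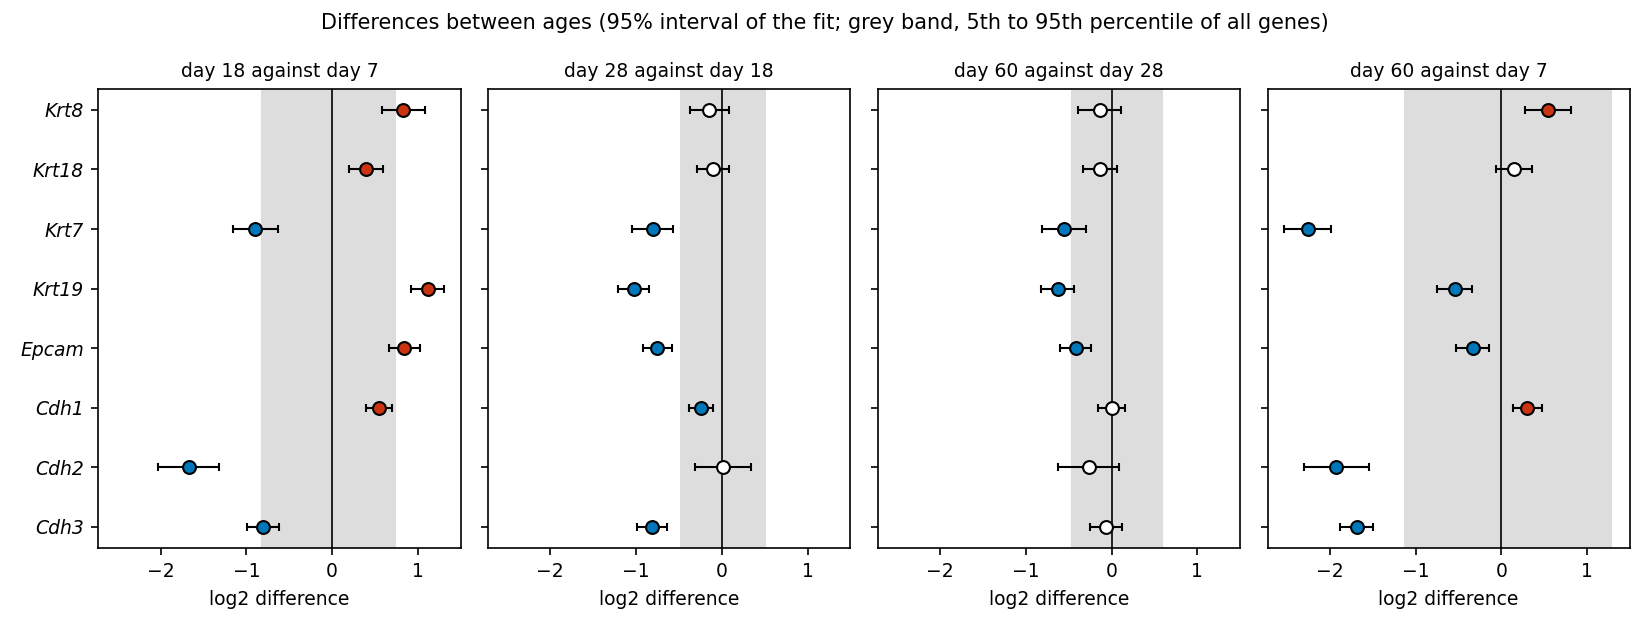
Log2 difference (horizontal axis) of the 8 genes in 4 comparisons of ages, with the 95% interval of the limma fit. Red points are called higher at the later age, blue points lower and white points not called; the grey band holds the 5th to 95th percentile of all genes. Krt7, Krt19, Epcam and Cdh3 lie left of the band for day 28 against day 18, and Krt7, Cdh2 and Cdh3 left of it for day 60 against day 7.

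Pairs of members were then set against each other within each array. This removes a shift common to all genes of an array, but not a scaling that depends on the signal level. Only the change of such a difference with age can be read, because probes of different genes have different response. For 5 pairs the between-age variation was tested by an exact permutation test over the 14 pools (4204200 arrangements, any direction, p adjusted over the 5 pairs), and all 5 passed. The 5 are not all possible pairs of the members. Krt7 and Krt19, Cdh1 and Cdh2, and Cdh1 and Cdh3 had already been called in opposite directions from day 7 to day 18. For these pairs a pass is not separate support. The difference Cdh1 minus Epcam was 1.01 ± 0.11 at day 7, then 0.72 ± 0.068 for day 18, 1.23 ± 0.054 for day 28 and 1.65 ± 0.18 for day 60 (mean ± SD, n = 3, 4, 4 and 3; exact permutation p = 9.51e-07, the smallest that the arrangements can give; adjusted p = 4.76e-06). E-cadherin signal thus lost less than EpCAM signal after day 18, and no pool of one age overlapped that of another.

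The difference Cdh1 minus Cdh3 widened from 0.69 ± 0.053 at day 7 to 2.04 ± 0.068, 2.61 ± 0.13 and 2.68 ± 0.067 over the later ages in turn (exact permutation, adjusted p = 4.28e-05). Cdh1 minus Cdh2 went from 3.33 ± 0.058 at day 7 to 5.54 ± 0.29, 5.28 ± 0.18 and 5.55 ± 0.43 at the later ages (exact permutation, adjusted p = 0.00285), a 4.67-fold range of the ratio. The Cdh2 pools after day 7 lay at 5.07 to 6.06, close to the background level of 4.92, so this size is uncertain. The cadherin ratios therefore differed between day 7 and all later ages in every pool. Both ratios moved through a lower Cdh2 or Cdh3 and a higher Cdh1 between the first ages.

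Among keratins, Krt7 minus Krt19 dropped from 0.11 ± 0.33 at day 7 to -1.89 ± 0.14 at day 18, then stood at -1.67 ± 0.19 and -1.599 ± 0.11 (exact permutation, adjusted p = 0.000858). After day 18 these keratins fell side by side, and their ratio at day 18, 28 and 60 overlapped. Krt8 minus Krt18 was -0.71 ± 0.13 at day 7 and -0.27 ± 0.081, -0.31 ± 0.22 and -0.31 ± 0.10 afterwards (exact permutation, adjusted p = 0.0113). This smallest of the 5 changes, a range of 1.36-fold, lost its call without replicate 3 of day 7 (adjusted p = 0.0687; range over 16 alternatives 0.00255 to 0.0687).

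**Figure D3:**
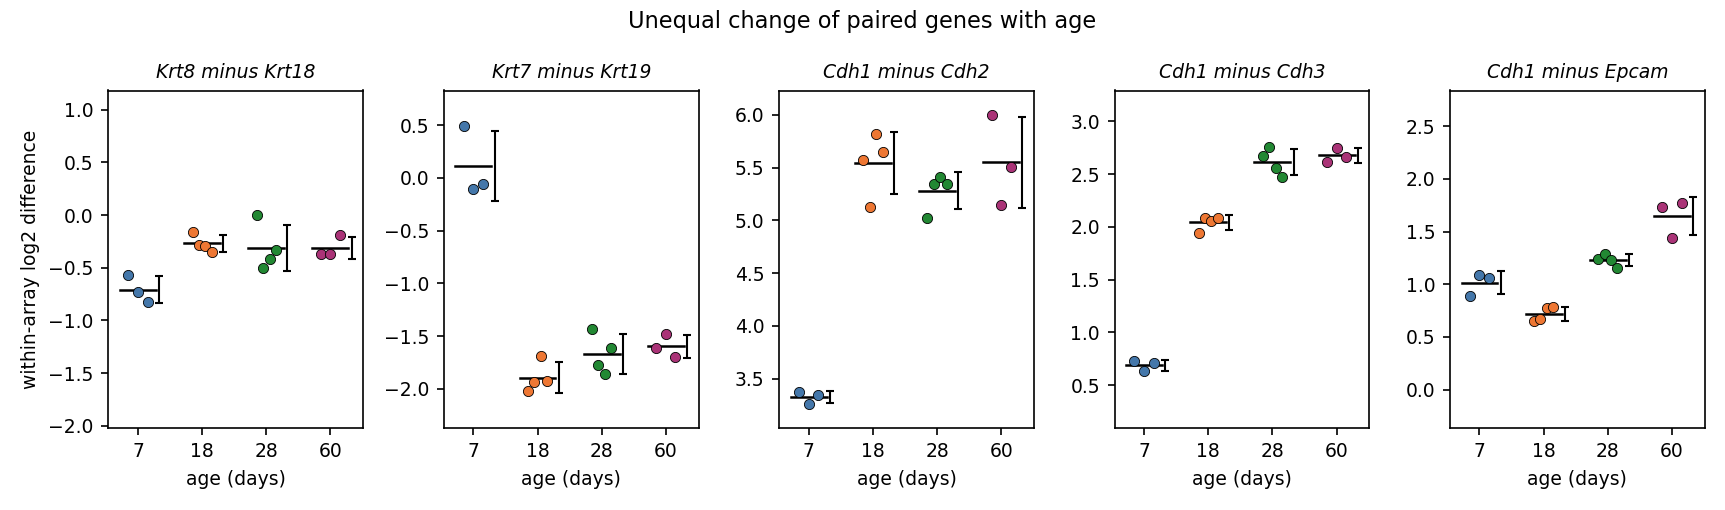
Within-array log2 difference of 5 gene pairs (vertical axis, each panel spanning the same 3.2 log2 units) by age in days (ages evenly spaced). Points are pools, long bars are age means and short bars span 1 SD either way. Cdh1 minus Cdh3 widens up to day 28, from 0.69 to 2.61, and Krt7 minus Krt19 drops once, after day 7.

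For each member the genes with the most similar age course were sought among 10167 genes that changed with age and rose above the background level, by the root mean square difference of the 4 centred age means. The measure is a description over 4 points that all genes share. For Krt19 the closest was Cdh16, a cadherin of kidney and other ducts, at 0.038 log2 units (median over all genes searched 0.66), with age means of 10.23, 11.33, 10.24 and 9.72. The next was Mmp15, a membrane-bound matrix metalloprotease (0.046). For Epcam they were Dok5 and Pde1c (0.037 and 0.049, median 0.52), of which Dok5 lay under the background level at 3 ages.

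For Krt7 the closest were the histone gene H2bc12 (0.061, median 0.80) and Macc1 (0.069), whose day 28 and day 60 means were under the background level. Cdh2 was closest to Tmem26 and to Fabp3, a fatty acid binding protein (0.047 and 0.055, median 0.73). Cdh3 was closest to Pcsk6, a proprotein convertase, and Vangl2, a gene of planar cell polarity (0.068 and 0.076, median 0.65). The flatter courses of Krt18, Cdh1 and Krt8 had close matches more readily: Pi4k2a and Ppp3ca for Krt18 (0.0065 and 0.0079), Pik3cd and Rasd2 for Cdh1 (0.019 and 0.024), and Ccdc88b and Oas1a for Krt8 (0.026 and 0.031). Of these, Ccdc88b had a day 7 mean of 4.63, under the background level. Among the members themselves Krt18 and Cdh1 were nearest (0.073), Krt19 was nearest to Epcam (0.17) and Krt7 to Cdh3 (0.23), and Krt8 and Krt7 were farthest apart (1.07).

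Other genes that epithelia of most kinds express followed the rise of Krt8, Epcam and Cdh1 at the first step. Over the steps in turn and the span, 93.1%, 48.3%, 37.9% and 65.5% were called, beside 38.1%, 24.7%, 25.0% and 49.2% of all genes. Of 29 measured genes of this list 24 rose and 3 fell from day 7 to day 18 (median difference 0.59). The largest rises were those of Ehf and Elf3, epithelial ETS transcription factors, by 1.43 ± 0.082 and 1.22 ± 0.096, and the largest falls those of Klf5 (-0.81 ± 0.097) and Grhl3 (-0.68 ± 0.13). From day 18 to day 28, 2 rose and 12 fell (median -0.24); Lad1, an anchoring filament protein, fell by 0.87 ± 0.089 and the tricellular junction gene Lsr by 0.76 ± 0.080, while the motor gene Myo5b rose by 0.85 ± 0.096 and the splicing factor gene Esrp2 by 0.31 ± 0.082. From day 28 to day 60, 7 rose and 4 fell (median 0.077), with Tmem30b and Spint1 up by 0.71 ± 0.084 and 0.56 ± 0.13 and Cldn4 and Ovol2 down by 0.59 ± 0.12 and 0.51 ± 0.098. Day 60 was above day 7 for 15 genes and below it for 4 (median 0.42), where Krt19 and Epcam were below: Myo5b and Tmem30b were higher by 1.75 ± 0.11 and 1.495 ± 0.090, and Klf5 and Grhl3 differed by -1.22 ± 0.10 and -0.995 ± 0.14. Cldn7, a claudin that binds EpCAM, had means of 8.40, 9.17, 9.21 and 9.28; after a rise of 0.77 ± 0.080 its later steps of 0.040 ± 0.074 and 0.073 ± 0.080 did not pass the test, and whether they differ from those of Epcam was not tested.

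The partners of cadherins at the adherens junction were mixed at first and lower later. Of 15 measured genes 3 rose and 4 fell to day 18 (6 and 4 with either other scaling of the arrays), with the nectin gene Nectin4 and p120 catenin, Ctnnd1, higher by 0.37 ± 0.088 and 0.32 ± 0.069 and Nectin3 and plakoglobin, Jup, lower at -0.39 ± 0.080 and -0.38 ± 0.080. To day 28, 1 rose and 3 fell: Nectin1 rose by 0.46 ± 0.10, and Nectin2 and beta-catenin, Ctnnb1, fell by 0.49 ± 0.069 and 0.40 ± 0.065. To day 60, 8 fell and 0 rose by limma (0 at an unadjusted p under 0.05 as well), led by Nectin1 (-1.01 ± 0.11) and Arvcf (-0.86 ± 0.080). Over the whole span 9 were lower, among them Ajuba (-0.78 ± 0.096) and Ctnnb1 (-0.75 ± 0.075), and 1 was higher, the actin-binding gene Lima1 (0.34 ± 0.082). Ctnnb1 thus fell over the step to day 60 in which the Cdh1 difference was near 0, with means of 10.73 and 10.26. Over the steps in turn and the span, 46.7%, 26.7%, 53.3% and 66.7% of the list were called. Among all genes 38.1%, 24.7%, 25.0% and 49.2% were called.

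Desmosomes anchor keratin filaments at the cell border. Of 13 measured genes 4 rose and 1 fell to day 18 (38.5% called, near the 38.1% of all genes), with Perp and the desmocollin gene Dsc2 up by 0.90 ± 0.072 and 0.63 ± 0.11 and envoplakin, Evpl, down by 0.36 ± 0.12. To day 28, 3 rose and 2 fell: Perp rose by 0.57 ± 0.067, the desmoglein gene Dsg3 was called higher from a mean under the background level (4.18, then 4.94), and periplakin, Ppl, and plakophilin 2, Pkp2, fell by 0.67 ± 0.089 and 0.57 ± 0.10. To day 60 Perp alone passed, and fell by 0.34 ± 0.072. Across the span 6 rose and 2 fell (median 0.24), with Perp higher by 1.13 ± 0.077, Dsg3 called higher from a day 7 mean of 4.02, under the background level, and Ppl and Pkp2 at -0.55 ± 0.10 and -0.36 ± 0.12. The shares called to day 28, to day 60 and across the span were 38.5%, 7.69% and 61.5%. Among all genes 24.7%, 25.0% and 49.2% were called.

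The other keratins included 3 chains of the basal cell list, of which Krt14 and Krt15 rose and Krt17 fell. Of 18 measured genes, 8 had a mean at or under the background level. Krt14 rose by 1.98 ± 0.12 to day 18 and by 0.94 ± 0.11 to day 28, and was higher at day 60 than at day 7 by 2.77 ± 0.13. Krt15 was called higher in the same comparisons, with means of 4.52, 5.84, 7.23 and 7.63; the first is under the background level, so the size of its rise from day 7 is not measured. Krt75 and Krt13 fell by 1.69 ± 0.21 and 0.76 ± 0.12 to day 18, and Krt17 and Krt80 by 0.82 ± 0.18 and 0.43 ± 0.14 to day 28. Over the whole span Krt17 was lower at -1.54 ± 0.20, and so was Krt75, whose means of 4.66 and 4.60 at day 28 and day 60 are under the background level and give no size. In counts 3 rose and 3 fell, then 2 and 2, then 0 and 0 by limma (0 and 1 at an unadjusted p under 0.05), and 3 and 5 over the span. The shares called were 33.3%, 22.2%, 0% and 44.4%, beside 38.1%, 24.7%, 25.0% and 49.2% of all genes.

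Among the other cadherins Cdh16 rose by 1.11 ± 0.066 and fell by 1.09 ± 0.061 over the same steps as Krt19, and the intestinal cadherin gene Cdh17 was called higher from a day 7 mean under the background level (4.57, then 5.22). Cdh6 and the mesenchymal cadherin gene Cdh11 fell with Cdh2 to day 18, with differences of -1.99 ± 0.13 and -1.41 ± 0.11. Unlike Cdh2, Cdh11 then rose by 0.70 ± 0.10 and fell by 0.81 ± 0.11; whether its steps differ from those of Cdh2 was not tested. The muscle cadherin gene Cdh15 rose by 1.499 ± 0.17 to day 28, and Cdh13 and Cdh17 rose by 0.94 ± 0.088 and 0.49 ± 0.14 to day 60. Cdh7 was called lower at both steps, but its means of 5.04, 4.63 and 3.91 run from about the background level to below it, and the first of these calls was lost when arrays were centred on their medians. Of 18 measured genes 2 rose and 5 fell at the first step, 5 and 2 at the next, 2 and 6 at the last, and 2 and 6 over the span. The shares called were 38.9%, 38.9%, 44.4% and 44.4%, beside 38.1%, 24.7%, 25.0% and 49.2% of all genes. Over that span Cdh15 was higher by 1.29 ± 0.19, Cdh17 was called higher and Cdh11 and Cdh6 stood at -1.52 ± 0.12 and -1.52 ± 0.14.

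Genes of transcription factors that repress Cdh1 in other systems were mostly lower after day 7. Of 10 measured genes 6 fell and 0 rose by limma from day 7 to day 18 (0 at an unadjusted p under 0.05 too), with a median of -0.94: Twist2 fell by 1.92 ± 0.13, and Zeb1 fell by 1.204 ± 0.086. From day 18 to day 28 Prrx1 and Tcf4 rose by 0.25 ± 0.086 and 0.24 ± 0.059 and Tcf3 fell by 0.39 ± 0.084. From day 28 to day 60 Zeb2 and Tcf4 rose by 0.31 ± 0.077 and 0.26 ± 0.064 and Tcf3 fell by 0.42 ± 0.090; the Tcf4 call was lost under quantile normalization. Over the span 7 fell and 1, Snai3, rose (0.55 ± 0.17). Twist2 and Snai1 were at -2.18 ± 0.14 and -1.19 ± 0.17. Of all genes 38.1%, 24.7%, 25.0% and 49.2% were called over the steps in turn and the span. The share called in the repressor list was above these at the first step and over the span, and near them at the later steps. Some of these repressors, though not all, are made mainly by mesenchymal cells, whose markers fell over the first step as well. Of 11 fibroblast genes 10 fell and 0 rose (0 unadjusted). Their summed signal on the log2 scale went from 15.46 to 15.54 at day 7 to between 14.91 and 15.002 at day 18, and the part of this in the levels of the repressors was not tested.

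Because mesothelium, the covering of the organ, also makes simple keratins and N-cadherin, its markers are given beside the members that fell. Of 10 measured mesothelial genes 8 fell and 1 rose (Calb2, which other cells also make) from day 7 to day 18, and 7 fell and 1 rose to day 28. Their summed signal (log2 of the sum of linear signals) ran from 11.28 to 11.66 at day 7, then from 9.98 to 10.18 in the day 18 pools, from 9.58 to 9.79 in those of day 28 and from 9.88 to 10.01 in those of day 60. Msln, mesothelin, had means of 8.64, 6.68, 5.68 and 6.21, and Upk3b of 8.34, 5.88, 4.94 and 5.39; Bnc1 and Dmkn were at or under the background level in every pool. The part of mesothelium in the falls of Krt7, Cdh2 and Cdh3 was not tested. From day 28 to day 60 these markers had 3 rises and 0 falls (6 and 2 at an unadjusted p under 0.05) while Krt7 fell. The rises were those of Lrrn4, Msln and Calb2, and Calb2 had also risen at both earlier steps. Calb2 had means of 4.41, 5.11, 6.93 and 7.61, of which the first is under the background level. Of all genes 38.1%, 24.7% and 25.0% were called either way over the steps in turn. The share called in the mesothelial list was above these at both earlier steps and near that of all genes at the last.

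Other cell types that could carry Cdh2 or dilute the epithelium changed as follows at the first step. Of 8 genes of nerve and Schwann cells 3 fell and 1 rose, with Cdh19 at or under background in every pool, and their summed signal ran from 9.56 to 9.82 at day 7 and from 9.05 to 9.13 at day 18. Smooth muscle had 5 falls among 8 genes and 0 rises, and endothelium 5 falls and 1 rise among 8. Other types rose: leukocytes had 5 rises and 1 fall among 10 genes (median 0.38), and adipocytes 5 rises and 0 falls among 6 (median 1.06). Of epithelial cell types, 7 of 12 principal cell genes, 7 of 9 clear and narrow cell genes and 5 of 9 basal cell genes rose, and 0, 0 and 1 fell. The summed signal of the principal cell list kept rising after day 18, from between 12.77 and 13.11 to between 14.71 and 14.80 at day 28 and between 15.31 and 15.37 at day 60, over the steps in which Krt19 and Epcam fell. From day 18 to day 28 smooth muscle also had 7 rises of 8 and 0 falls, endothelium 5 of 8 and 0 falls, and adipocytes 3 of 6 and 0 falls, while clear and narrow cells had 2 rises and 4 falls of 9 and leukocytes 3 falls of 10. From day 28 to day 60, 6 of 8 haploid germ cell genes rose (median 2.56), and their summed signal went from between 7.37 and 7.64 to between 10.69 and 11.16. The day 28 means of all 6 risers were under the background level, so the size of these rises is not measured. Each 0 given here by limma was also 0 at an unadjusted p under 0.05, except for 1 fall among the clear and narrow cell genes at the first step. Among all genes 38.1%, 24.7% and 25.0% were called either way over the steps in turn. The part of these shifts in the courses of the members was not tested.

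**Figure D4:**
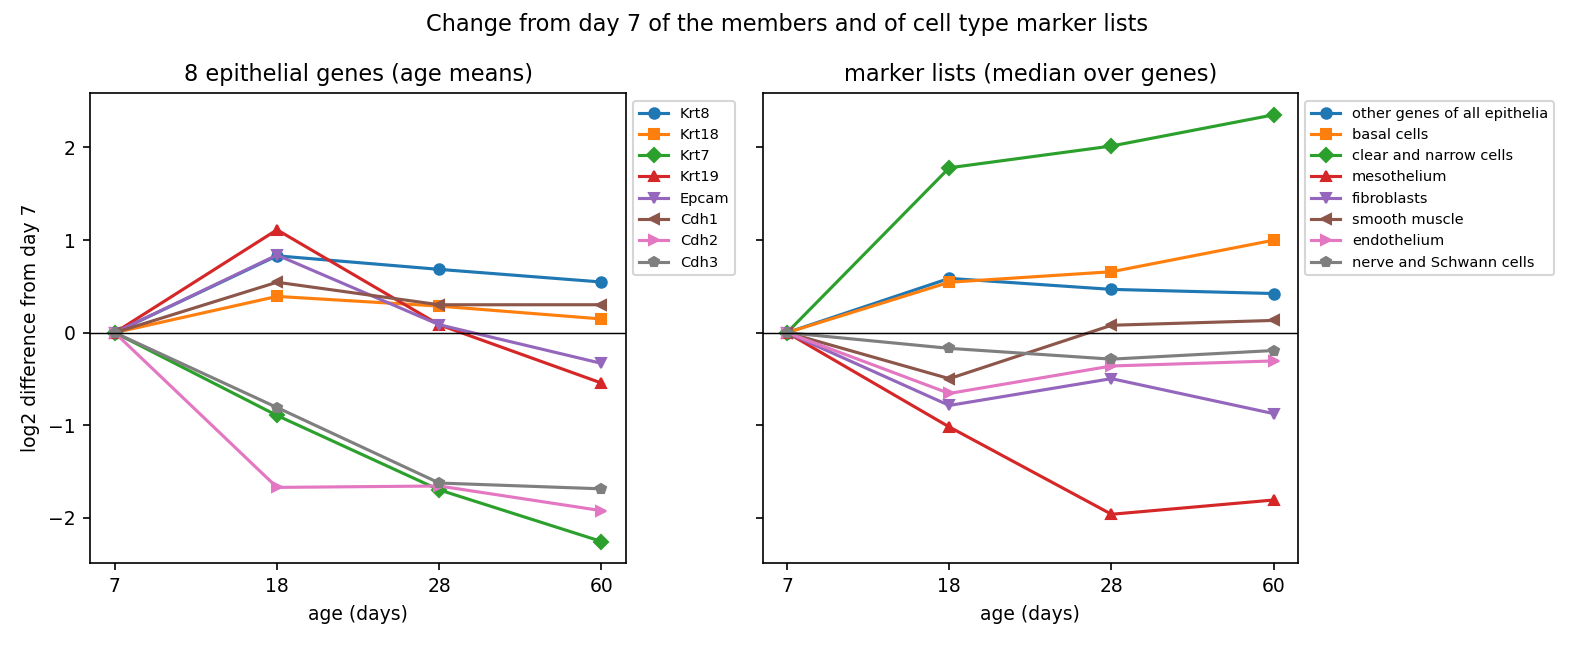
Log2 difference from day 7 (vertical axis) of the age means of the 8 genes (left) and of the median over the genes of 8 marker lists (right), by age in days (ages evenly spaced; no error is drawn). The left panel shows rises to day 18 for 5 genes and falls for 3. The right panel shows the mesothelial median reaching -1.96 at day 28 while that of other genes of all epithelia lies at 0.47.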

How the data were processed

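The deposited values are log2 signals per transcript cluster, processed by the authors with RMA and the Transcriptome Analysis Console, per the submitters' processing notes; settings and genome build are not given in the sources used here. RMA makes arrays alike in distribution, so only relative levels are measured. Array medians ran from 5.21 to 5.42. Of 36685 clusters, 18511 had 1 symbol in the array annotation; the cluster with the highest mean per gene gave 18166 genes, with no filter on low signal. A single limma 3.58.1 model (R 4.3.3) with 1 mean per age covered the 14 arrays, with two-sided tests and Benjamini-Hochberg adjustment over all genes (threshold 0.05), and was tested on simulated data. The members and the 17 lists (197 of 220 genes measured) were chosen with earlier results of these data known. Named genes are the members, per functional list the 2 called genes with the greatest difference each way, between neighbouring ages and for day 60 against day 7, genes that define a cell type list, and the 2 closest age courses per member. Others named (Cldn7, Calb2 and genes named for their levels) were picked after their values were seen. Alternatives are in the closing section. Replicate numbers do not pair the pools: same-numbered pools of different ages correlated at -0.14 to 0.046 in their deviations from the age means. The labels do not say whether pools shared animals, so p-values measure the spread between pools.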

Additional observations from a re-analysis of the deposited data

Results flagged for a closer look

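In 26 groups of 4 pools (8 genes and 5 within-array differences at day 18 and day 28), 3 held a pool whose gap to the nearest other pool exceeded Dixon's critical value of 0.829 of the group's range; chance alone flags about 1 in 20 groups. Replicate 4 of day 18 was high for Krt18, at 9.50 against 9.33 to 9.34 in the other pools. Replicate 1 of day 18 was high for Krt19, at 10.63 against 10.38 to 10.41. Replicate 1 of day 28 was low for the difference Cdh1 minus Cdh2, at 5.02 against 5.35 to 5.42. Leaving out these pools in turn kept the direction and the call of the Krt18 and Krt19 rises to day 18 and of the Cdh1 minus Cdh2 change.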

How the results depend on the processing

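Quantile normalization, centring of arrays, a filter at the median level (which drops Cdh2), an intensity trend, pools of the compared ages only, the replicate block, array weights, mean clusters, every cluster, and leaving out each pool were tried. All 160 counts of called members stayed within 1.5 times the reported ones; with the replicate block 8, 5 and 3 members were called over the 3 steps, as reported, and 5 instead of 6 both for day 28 against day 7 and for day 60 against day 18, where Krt18 was lost (adjusted p = 0.0543 and 0.119). For single members 1061 of 1098 differences kept their direction and call, 20 lost a call (17 of them Krt18, 3 Cdh1), 5 gained one (Krt8, day 60 against day 18) and 12 changed sign, all between values that were not called. These were Cdh1, day 60 against day 28 (-0.11 quantile-normalized, -0.0019 centred, and -0.0081, -0.0070, -0.035 and -0.0033 without 1 pool, range to 0.039), Cdh2, day 28 against day 18 (-0.014 with array weights, and -0.0047, -0.078 and -0.079 without 1 pool, range to 0.13), Epcam, day 28 against day 7 (-0.0055 to 0.15 over pools left out, 0.16 at most over all alternatives), and Cdh3, day 60 against day 28 (-0.13 to 0.012 over pools left out, -0.15 at the lowest over all alternatives). Quantile normalization moved Cdh1, day 60 against day 18, from -0.24 to -0.43. Of 80 alternative within-array results 79 kept their call; Krt8 minus Krt18 lost it without 1 pool, with a range of age means of 0.38 to 0.51 over pools left out (0.44 reported). No called list gene changed sign under either scaling, but 12 list calls were lost under quantile normalization and 10 under centring, at most 1 in any list and comparison. The number of arrays limits the precision.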
